A study of Homo sapiens with 4 samples.

Results

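TBX3 summits that fell in exons or 5' untranslated regions (5' UTRs) of annotated genes, and that recurred in both replicates of a chromatin immunoprecipitation sequencing (ChIP-seq) experiment, are described here. A summit is the single base at which a peak is highest, and a shared region is a pair of summits, one from each replicate, that were mutually nearest and at most 200 bp apart. The label in the replicate 1 list had to be exon or 5' UTR. By this rule 294 of 22702 shared regions were members (1.30%, 95% Wilson interval 1.16% to 1.45%), 227 in exons (1.00%) and 67 in 5' UTRs (0.295%). All 4 samples came from 501mel, an established human melanoma cell line, and the ChIP titles name TBX3 with a triple HA tag (TBX3-3xHA). Chromatin fixed with formaldehyde was precipitated with the HA antibody 12CA5 for 2 ChIP samples, each with a numbered input sample that was not analysed here. The ChIP lists held 32479 peaks in replicate 1 and 40494 in replicate 2. How the tagged protein was expressed, and whether the replicates were separate cultures, is not given in the sources used here. The melanoma identity of the cells could not be checked against marker genes, since peak lists measure no expression, and read depth is unknown. With a single ChIP condition no test between groups exists, so every comparison is a description and has no p-value.

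TBX3 belongs to the T-box transcription factors. It binds DNA through the T-box domain and is known mainly as a repressor in development and in cancer. T-box proteins recognise variants of the half-site AGGTGTGA, whose core is GGTGTG. A 5' UTR is the transcribed stretch before the start codon, so most 5' UTR positions lie just downstream of a transcription start site (TSS), next to the promoter. Coding exons can lie anywhere in the gene, and DNA in them can be bound by a factor while it also encodes protein. Exon and 5' UTR labels came from the deposited annotation of hg38, which gives each summit 1 label, the number of the exon and the number of exons in 1 chosen transcript. Promoter took precedence near a start site: all 117 shared regions 0 to 100 bp downstream of the nearest TSS carried the promoter label, so the exon and 5' UTR classes began beyond that edge.

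Sequence is shown for members whose replicate 1 summit lay inside the promoter window of its own gene in RefSeq (GRCh38.p14, from 250 bases before to 50 after the gene's start), because these windows were the only sequence at hand that covered any member. There were 21 such members, all in 5' UTRs. The start site behind the deposited distance is not always the RefSeq gene start: by the deposited distance all 21 lay 103 to 630 bp downstream of a TSS, while 13 of the 21 lay upstream of the start used for the RefSeq window. The first set gives the 5 with the lowest sum of score ranks that had an entry, each as 30 bases on the strand of the gene, 5' to 3', with the replicate 1 summit in capitals. They came from chr2:108288829-108288858 (plus strand, SULT1C2), chr2:33476533-33476562 (plus, RASGRP3), chr13:49792664-49792693 (minus, KPNA3), chr3:134374463-134374492 (minus, AMOTL2) and chr1:6026296-6026325 (plus, KCNAB2).
SULT1C2: cagggccaggtcacaGggtttgtttctgtt
RASGRP3: ttcagtttctgacctCctggcacggtggcg
KPNA3: cccggcccggcagtcGgcccgcgcctcccc
AMOTL2: cggcgcgggccgaccCtggggctgcgcgct
KCNAB2: cggcagtgcatagctCtggcacgcgctgca
The replicate 2 summits of SULT1C2 (108288841), AMOTL2 (134374471) and KPNA3 (49792690) fell within the same 30 bases, and those of RASGRP3 (33476625) and KCNAB2 (6026277) fell outside them.

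The half-site AGGTGTGA, searched on both strands as AGGTGTGA or TCACACCT, was found in 0 of the 21 windows, against 344 of 35116 promoter windows of the whole table (0.980%). Its core, GGTGTG or CACACC, which every full half-site also contains, was found in 2 of the 21 (9.52%), against 16.8% of all windows. The windows were placed by gene starts and were not centred on summits, so sequence beside some summits was not searched. At APBA2, for example, the summit (29070700) lay close to the end of the window (29070707). A match describes letters only, and the absence of one says nothing about binding. The second set shows the 2 windows that held the core, with the core in capitals, from chr4:169271000-169271029 (minus strand, SH3RF1) and chr5:36606453-36606482 (plus, SLC1A3).
SH3RF1: cggcggcggcgtGGTGTGtgtgcgcgcgtg
SLC1A3: aagcctgcttctGGTGTGccaagattaatc
The first base of the core lay 43 bp from the replicate 1 summit at SH3RF1, a scaffold protein of stress kinase signalling. At SLC1A3, a glutamate transporter, it lay 147 bp away. The 21 windows had a median G+C content of 62.7%, with quartiles of 51.0% and 72.0%, and all windows had 58.7% (47.0% to 68.0%).

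Most exon members lay in the interior of the transcript. Of the 227 exon members, 154 were in an inner exon (67.8%, Wilson interval 61.5% to 73.6%), 43 in the last exon (18.9%, 14.4% to 24.5%), 13 in the first exon (5.73%) and 17 in transcripts of a single exon (7.49%). The 5' UTR members had the opposite layout, with 56 of 67 in the first exon (83.6%), 9 in an inner exon, 1 in a last exon and 1, at MC1R, in a single-exon transcript. Both layouts were partly fixed by the labels. First-exon positions could be labelled promoter or 5' UTR, and last-exon positions 3' UTR (140 shared regions) or transcription termination site (241). Transcripts of exon members had a median of 12 exons, and the inner share of all annotated exons was not computed. Among all 163 inner members the position along the transcript, counted as the exon number minus 1 over the number of exons minus 1, had a median of 0.500 and quartiles of 0.275 and 0.750. Because first and last exons are left out by definition, a central median is partly fixed by the choice of inner exons. Exon 1 held 87 of all 294 members (29.6%, 24.7% to 35.0%).

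Distance to the nearest TSS divided the members further. Within 1 kb of a start site lay 91 of the 294 (31.0%, 25.9% to 36.5%), against 3.89% of all shared regions. The labels used to choose members lean towards transcribed ends, so this difference was built in by the rule. In the 5' UTRs 59 of 67 were within 1 kb, and 56 lay between 100 and 430 bp downstream; the median distance was 229 bp. In exons 32 of 227 were within 1 kb and 58 lay beyond 50 kb, with a median of 21275 bp and quartiles of 6605 and 50190 bp. The most distant was in exon 26 of ADGRB3, an adhesion receptor of neurons, 457809 bp from the nearest start site. Among all 180 shared regions 101 to 430 bp downstream of a TSS, 56 were labelled 5' UTR, 21 exon, 39 intron, 25 promoter, 22 transcription termination site and 17 non-coding.

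**Figure D1:**
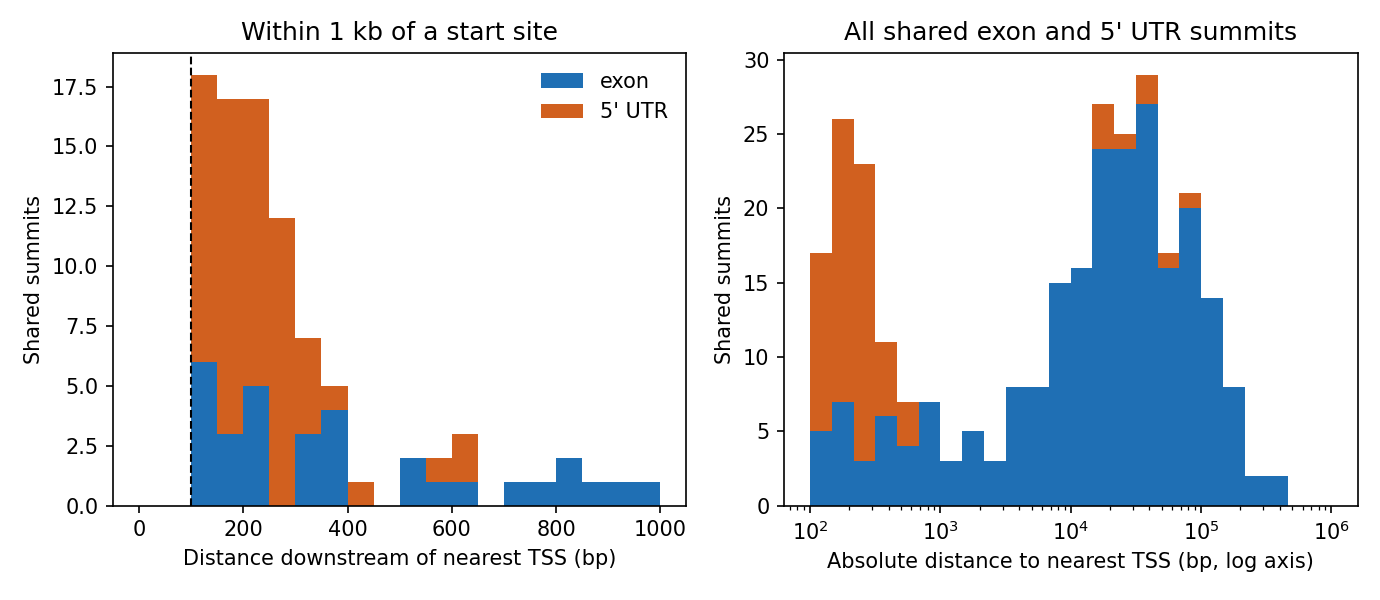
Number of shared exon and 5' UTR summits by distance to the nearest start site in base pairs, stacked by class; the left panel shows the 91 within 1 kb, all downstream, with a dashed line at 100 bp, and the right panel shows all 294 on a log axis. The 5' UTR members pile up in the first 430 bp, while exon members spread as far as 457809 bp.

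Scores were read as percentiles within each replicate's own list, where 100 is the highest score, since the scale of the deposited score is not stated and the lists differ in length. All shared regions had medians of 63.6 in replicate 1 and 70.5 in replicate 2, above 50 because peaks with a partner tend to score higher. Members had medians of 70.7 (quartiles 46.6 to 86.7) and 75.6 (51.3 to 89.3). The 5' UTR members stood at 77.8 and 79.8, close to the 573 shared promoter regions at 75.2 and 78.2. Exon members stood at 69.1 and 74.0, against 63.6 and 72.6 for 9016 shared intron regions and 62.9 and 68.2 for 12067 intergenic ones. The quartile ranges of all these classes overlapped widely.

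Near start sites the members did not stand apart from all shared regions at the same distance, a set that includes the members. Within 1 kb the 91 members had median percentiles of 73.9 and 78.9, and all 883 shared regions there had 74.4 and 77.4. At 1 to 10 kb the medians were 69.7 and 73.7 for 42 members against 64.5 and 73.4 for all shared regions. At 10 to 50 kb they were 68.8 and 73.3 for 102 members against 63.0 and 71.9. Beyond 50 kb they were 66.1 and 77.1 for 59 members against 63.6 and 68.4. Among exon members, single-exon transcripts had medians of 73.9 and 59.0, first exons 66.6 and 79.2, inner exons 69.1 and 76.3 and last exons 66.1 and 69.6. The order of these 4 places differed between the replicates. The 9 inner 5' UTR members had the widest quartiles, 20.7 to 96.5 in replicate 1.

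**Figure D2:**
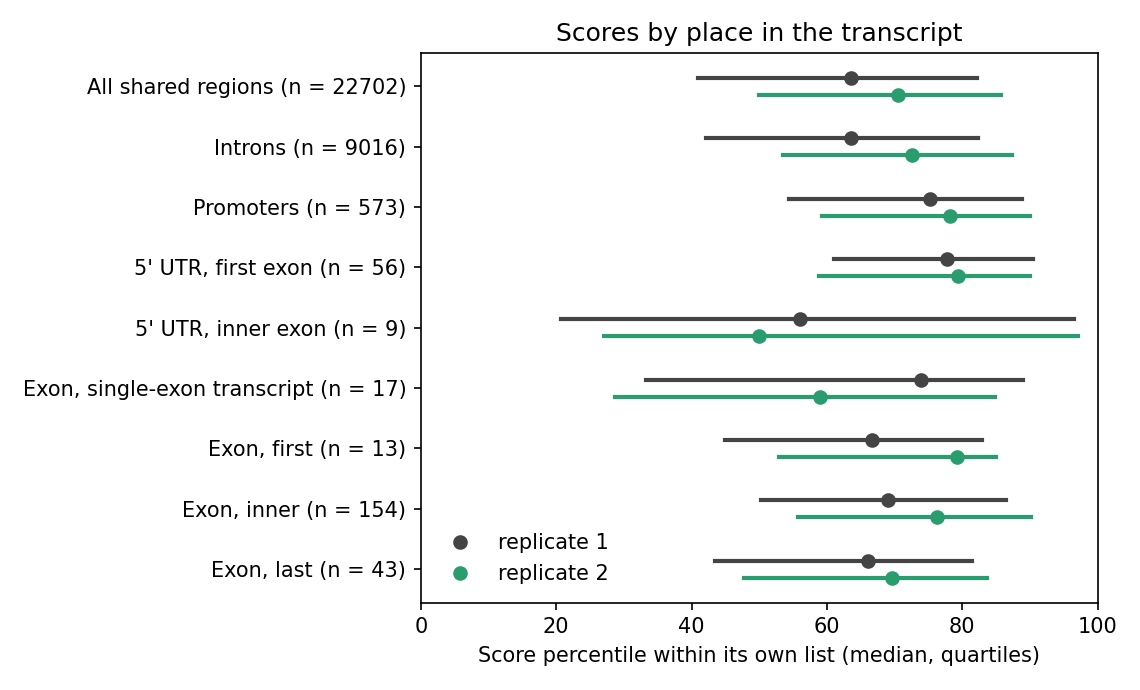
Score percentile within each replicate's own list (x axis, 0 to 100) by place in the transcript, with points for medians and bars from the lower to the upper quartile; n is the number of shared regions in each place, and the single 5' UTR members in a last exon and in a single-exon transcript are not drawn. First-exon 5' UTR members (77.7 and 79.4) sit beside promoters, and all bars overlap.

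The top 10% of both lists held a somewhat larger share of members than of shared regions in general, more clearly for 5' UTRs than for exons. Of the 294, 51 scored in the highest 10% of both lists (17.3%, Wilson interval 13.4% to 22.1%), against 12.4% of all shared regions, an interval that starts just above that background. The 5' UTRs contributed 17 of their 67 (25.4%, 16.5% to 36.9%) and exons 34 of 227 (15.0%, 10.9% to 20.2%). The exon interval covered the background of 12.4%. That background takes in shared regions of every class and distance. Whether the 5' UTR share differs from that of promoters or of all shared regions within 1 kb of a start site was not tested. The upper quartiles of the percentiles lay close together, at 90.8 and 90.9 for 5' UTR members and 88.1 and 89.5 for all 883 shared regions within 1 kb. In the top 100 of both lists were 3 members (1.02% of the 294, 0.348% to 2.96%), at NFIA, ROPN1B and ROPN1. There were 81 shared regions in all there (0.357% of the 22702), a share that the interval of the members covered. The interval treats the 3 as independent, although ROPN1B and ROPN1 are near-identical copies. Spearman's rho between the replicate scores was 0.883 across the 294 members, a description of regions that share the same pair of libraries; over all shared regions it was 0.852.

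The member with the lowest rank sum was in NFIA, a transcription factor of the nuclear factor I family. Its summits lay at 61404161 and 61404169 on chromosome 1, in exon 9 of 12, and scored 595.9 in replicate 1 and 717.0 in replicate 2, ranks 12 and 15. The closest start site belonged to the antisense transcript NFIA-AS1, 150643 bp away. Next came a pair of related genes on chromosome 3 that encode ropporins, proteins of the sperm flagellum. In ROPN1B, summits at 125975607 and 125975606 in exon 4 of 7 scored 540.6 and 740.9 (ranks 28 and 8). In ROPN1, summits at 123976956 and 123976938 in exon 3 of 6 scored 480.7 and 580.7 (ranks 55 and 72). ROPN1 and ROPN1B are near-identical copies, so reads may have been placed at either gene, and their 2 regions cannot be counted as independent.

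Among the 10 strongest members by rank sum, 4 others lay in exons other than the last. BCAR3, a signalling adaptor, had a region in exon 13 of 14 with scores of 410.2 and 421.5 (ranks 101 and 252). LRPPRC, an RNA-binding protein of mitochondria, had one in exon 31 of 38 with scores of 300.6 and 514.5 (ranks 231 and 130), although the replicate 2 summit, 21 bp away, was labelled intron. ITGA9, an integrin subunit, scored 228.9 and 478.7 in exon 16 of 28, 176945 bp from the nearest TSS. UNC5D, a netrin receptor, scored 216.4 and 412.3 in exon 7 of 17. All 4 of these lay more than 10 kb from any start site.

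Last exons held 3 of the 10 strongest members. LONRF2, a RING-finger protein, had both summits at the same base, 100284324 on chromosome 2, in exon 12 of 12, with scores of 338.6 and 429.2. ZNF806, a zinc finger gene whose listed transcript was not in the RefSeq table, had scores of 240.6 and 349.4 in exon 4 of 4. SLC34A1, a sodium-phosphate cotransporter of the kidney, had scores of 232.4 and 338.9 in exon 9 of 9, and the replicate 2 summit was labelled intron. The next last-exon members were THAP9, a gene derived from a transposase, in exon 6 of 6 with 183.4 and 374.3, and MROH1 in exon 12 of 12 with 110.8 and 276.0. In each of these 5 the replicate 2 score was the larger number, but scores of separate lists are not on a stated common scale.

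**Figure D3:**
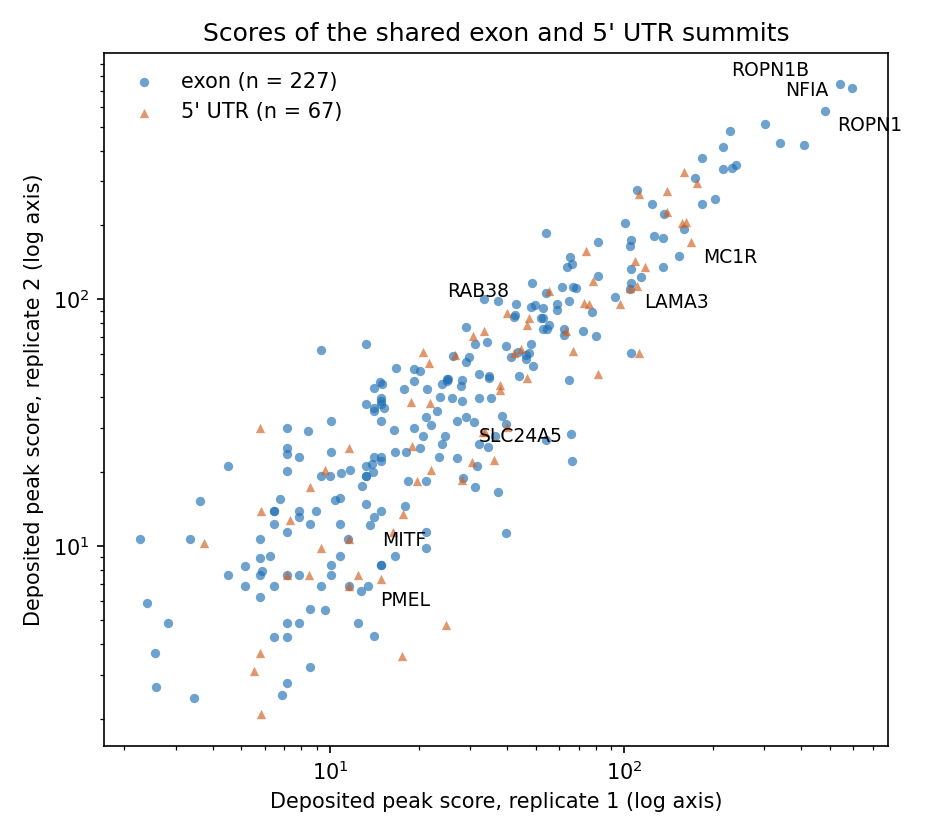
Deposited peak score in replicate 1 (x axis) and replicate 2 (y axis), both log axes, for the 227 exon members (circles) and 67 5' UTR members (triangles), with genes described in the text named. Points run along the diagonal from NFIA and ROPN1B at the top right down to scores near 2. The highest 5' UTR scores, 177.2 in replicate 1 and 328.6 in replicate 2, were below the highest exon scores of 595.9 and 740.9.

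In 5' UTRs the member with the lowest rank sum was at FMN1, a formin that builds actin filaments, in exon 4 of 5 and 39704 bp from the nearest TSS, with scores of 160.1 and 328.6 (ranks 875 and 451). In replicate 1 alone, SLC39A14, MC1R and GRAP2 scored higher. The next 4 by rank sum were near starts. SLC39A14, a zinc and manganese transporter, scored 177.2 and 295.0 at 330 bp. FAM240A scored 139.8 and 273.4 at 201 bp. GRAP2, an adaptor of T-cell signalling, scored 162.0 and 206.0 at 282 bp, and SULT1C2, a sulfotransferase, 157.1 and 204.4 at 205 bp. FMN1 was thus the only one of these 5 away from a start site.

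The lowest scores of the lists were 2.01 in replicate 1 and 2.00 in replicate 2, and the 5 members with the highest rank sum were weak in at least 1 list. NINL, a centrosomal protein, had scores of 2.57 and 2.68 in its last exon, 23 of 23. TM4SF4 had 2.804 and 4.90 and EPB41L1, a cytoskeletal linker, 5.85 and 2.09. RHCE, a blood group gene, had 2.53 and 3.68, and NBPF1 in exon 19 of 29 had 3.45 and 2.42; both have near-identical neighbours. Over the 14 members in 7 families with near-identical copies, the ropporins included, median percentiles were 33.2 and 15.7, and without them the remaining 280 members had 72.2 and 76.6. The part that read placement had in these values was not tested.

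Genes of pigment synthesis and the melanocyte lineage were among the hosts. A host is the gene whose transcript the label names. Hosts were found in the RefSeq table for 287 of 294 members (97.6%), and they were 277 protein-coding genes, 1.38% of the 20037 in the table. Of 33 pigmentation genes, 5 were hosts (15.2%), namely MC1R, RAB38, SLC24A5, MITF and PMEL. This list was drawn up with earlier results of these data known, which had already placed shared regions close to many pigmentation genes, so the count is no independent evidence.

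MC1R, the melanocortin receptor that switches melanocytes between pigment types, had both summits at 89918045 on chromosome 16. The deposited annotation placed them 166 bp downstream of its TSS, in the 5' UTR of its single exon. By the RefSeq gene table, 0 shared regions lay within the span of MC1R, so that source put the summit outside the gene. The scores were 168.3 and 170.9 (ranks 795 and 1652). RAB38, a GTPase that traffics melanosome cargo, had summits at 88175270 and 88175254 on chromosome 11 in exon 1 of 3, 197 bp from the TSS, with scores of 49.6 and 94.8. SLC24A5, an ion exchanger needed for melanosome pigment, had summits at 48121938 and 48121925 on chromosome 15 in exon 2 of 9, 966 bp from the TSS, with scores of 29.0 and 33.2. Percentiles were 97.6 and 95.9 for MC1R, 85.0 and 90.8 for RAB38 and 74.4 and 73.7 for SLC24A5. MITF, the transcription factor of the melanocyte lineage, was lower, with summits at 69938028 and 69937995 on chromosome 3 in exon 3 of 10, 1428 bp from a TSS, and scores of 13.7 and 12.1 (percentiles 52.4 and 44.9). PMEL, which forms the fibrils of the melanosome, scored 13.4 and 6.92 in exon 7 of 12 (percentiles 52.2 and 26.6), and its summits were 94 bp apart. Exon summits of EDNRB, the endothelin receptor of melanocyte precursors (exon 8 of 8, score 13.2), and TRPM1, an ion channel of melanocytes (exon 4 of 27, score 4.50), were in the replicate 1 list without a partner.

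The other lists had few hosts. Adhesion and matrix genes had 3 of 38 (7.89%). LAMA3, a laminin chain, carried a region in exon 38 of 74 at 23871575 and 23871612 on chromosome 18, 1445 bp upstream of the nearest TSS, with scores of 105.7 and 116.7. LAMC1, another laminin chain, scored 39.5 and 31.3 in exon 2 of 28. CTNND1, the p120 catenin of adherens junctions, scored 8.54 and 17.4 in a 5' UTR 195 bp from a TSS, and its replicate 2 summit was labelled promoter. Of 40 chromatin regulators 1 was a host (2.50%), the histone methyltransferase KMT2C, in its last exon, 59 of 59, with scores of 31.0 and 17.3. The replicate 2 summit of KMT2C, 98 bp away, was labelled intron. None of 28 cell cycle genes and none of 17 T-box genes, TBX3 among them, hosted a member, where the background share of 1.38% corresponds to less than 1 gene in a list of either size.

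Among 11 gene families defined by their symbols, histone genes had the largest share of hosts, 5 of 92 (5.43%). All 5 are single-exon genes with the replicate 1 summit 106 to 221 bp from the TSS. A summit inside a single-exon gene cannot be labelled as an intron of that gene. The background of 1.38% covers protein-coding genes of any structure, so it is not a like comparison for these genes. H3C12, an H3 gene, scored 104.6 and 110.0 with summits at 27890571 and 27890544 on chromosome 6, and H4C2, an H4 gene, scored 93.3 and 101.8 with summits at 26027146 and 26027151. H4C9 followed with 65.1 and 47.0, H4C8 with 28.4 and 18.8 and H4C16 with 18.0 and 14.6. The replicate 2 summit of H4C9 was labelled promoter. Histone genes of 1 type are known to have similar coding sequences. The placement of reads among them was not tested, and they were kept among the 280 members without near-identical families. The larger families were near the background of 1.38%: zinc finger genes had 8 of 612 (1.31%), solute carriers 6 of 398 (1.51%) and olfactory receptors 4 of 392 (1.02%). ZBTB20, a zinc finger repressor, scored 217.7 and 335.4 in exon 3 of 5, and OR9G9, an olfactory receptor, 65.2 and 148.8 in its single exon. The replicate 2 summit of OR9G9 was labelled transcription termination site. HOX genes had 1 host of 40, HOXD8 (10.9 and 19.7), and SOX, FOX, collagen, keratin, protocadherin and ribosomal protein genes had none.

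Host genes with several members were rare, 8 of 277. STARD13, which has a START lipid-binding domain, had 4, which were the exon and 5' UTR portion of 13 shared regions within the gene; 9 others lay in introns. Scores in exon 15 of 18 were 28.1 and 38.8, in exon 14 14.1 and 23.0 and in exon 6 10.0 and 32.1, and the first-exon 5' UTR had 24.9 and 4.80. In replicate 2 the exon 6 summit was labelled intron and the 5' UTR summit promoter. SEMA5A, a guidance molecule, had 2 members among 53 shared regions, with 51 in introns; the 5' UTR one scored 139.8 and 225.3 and the one in exon 3 of 23 scored 2.25 and 10.6. PPARGC1A, a coactivator of mitochondrial genes, had 2 among 18, at separate start sites (26.0 and 39.7 in exon 1 of 13, 11.6 and 25.0 in the 5' UTR). The replicate 2 summit of its exon 1 member was labelled promoter. GFOD1 was the only one of the 8 whose shared regions were all members. Its 5' UTR region 170 bp from a TSS scored 104.4 and 111.0, and its exon 2 region scored 7.17 and 23.6. The replicate 2 summit of the exon 2 region was labelled non-coding.

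The remaining 4 genes had 2 members each. RGL1, a regulator of RAL GTPases, scored 136.9 and 220.5 in exon 13 of 17 but 14.9 and 32.1 in exon 6. PTPRR, a tyrosine phosphatase, scored 21.2 and 33.2 in exon 12 of 14 and 14.9 and 37.5 in exon 10, so the order of its members was not the same in the 2 lists. ATP6V0A4, a subunit of the vacuolar proton pump, scored 28.0 and 47.0 in exon 11 of 22 and 3.62 and 15.2 in exon 10. NBPF1 had 8.47 and 7.62 in a 5' UTR and the low scores given above in exon 19. Members of 1 gene share their source and were not counted as replicates.

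The host was also the gene with the nearest TSS for 202 of the 287 matched members (70.4%, Wilson interval 64.9% to 75.4%) and was not for 85. LRPPRC is an example, where the nearest start site was that of ABCG8, a sterol transporter. A smaller share of members than of shared regions at large had close company: 27.6% had another shared region within 10 kb, against 41.6% of all shared regions, 25.1% of promoter regions, 33.7% of intron regions and 48.4% of intergenic ones. The median distance to the next shared region was 26029 bp for members and 15715 bp overall.

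The paired summits of members were a median of 28 bp apart, the same as over all shared regions, and 210 of 294 pairs were within 50 bp (71.4%). Medians were 22 bp in 5' UTRs, 30 bp in exons and 18 bp at promoters. Both summits fell on the same base in 4 members, at LONRF2, KIF23, MC1R and USP17L18. The label could still differ between the lists. The replicate 2 summit carried the same class in 233 of 294 members (79.3%), and 45 of the 227 exon members were labelled intron there (19.8%, 15.2% to 25.5%). Of the 67 5' UTR members 59 kept the label (88.1%) and 6 became promoter. Just inside the 200 bp limit were CFAP57 (177 bp, scores 7.12 and 4.28), ATP6V0A4 (183 bp, 3.62 and 15.2) and ATP8A2 (193 bp, 54.4 and 26.9). Just outside were NOTCH2 (209 bp, 6.43 and 7.62), INPP4B (226 bp, 56.7 and 95.8) and IL17RD (227 bp, 7.49 and 20.9).

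Before pairing, the replicate 1 list had 375 exon summits and 92 in 5' UTRs. Since a partner is part of the rule for members, the shares with a partner are background and were not tested. A partner in replicate 2 was found for 60.5% of the exon summits (55.5% to 65.3%) and 72.8% of the 5' UTR summits (63.0% to 80.9%), against 70.0% of summits of all other classes. Summits were split into 4 bins by the score quartiles of replicate 1. In the 2 lower bins, 21.5% and 44.3% of exon summits had a partner against 29.8% and 64.2% of the others. In the 2 upper bins the shares were 84.5% and 97.9% against 88.5% and 97.6%. The exon interval lay below the other classes in bin 2 (34.4% to 54.7%) and covered their share in the other 3 bins. For 5' UTR summits the interval lay below the other classes in bin 3, where 14 of 22 had a partner (63.6%, 43.0% to 80.3%). The replicate 2 list did not show the same gap, with 54.5% of exon summits paired against 56.0% of others, and 15.0%, 36.3%, 74.7% and 97.5% from the lowest to the highest bin against 16.3%, 38.7%, 72.6% and 96.3%.

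**Figure D4:**
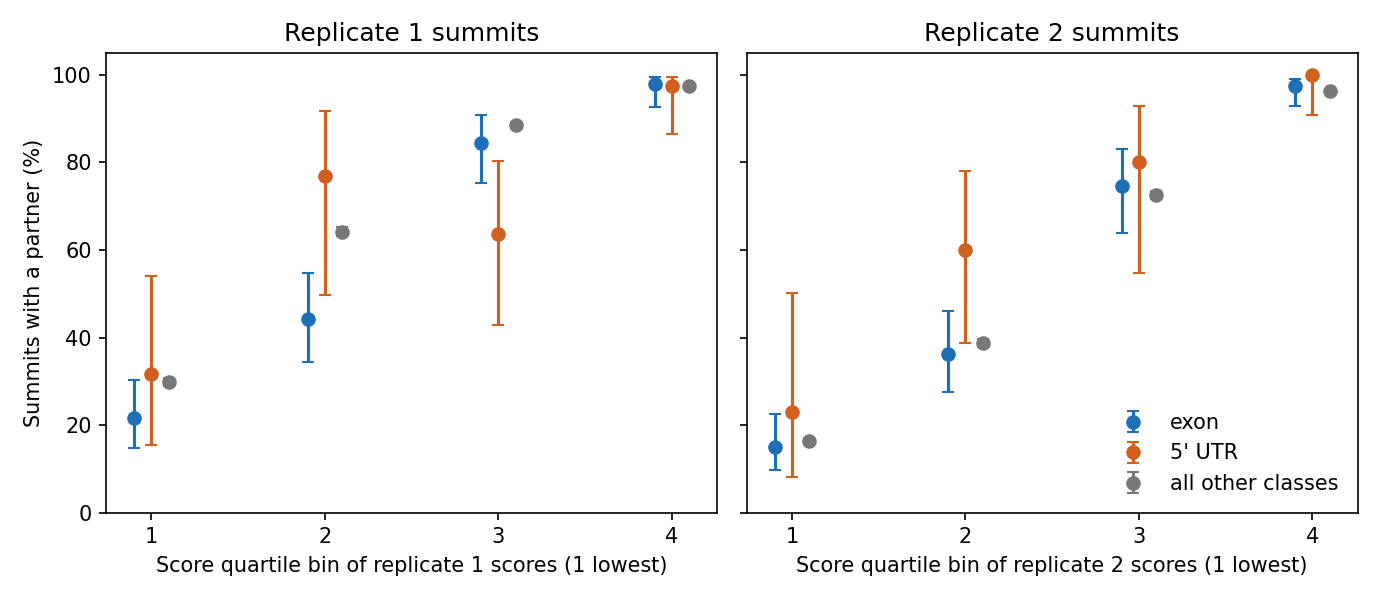
Percentage of summits with a partner within 200 bp in the other replicate, by score quartile bin of each list (1 lowest, 4 highest), with 95% Wilson intervals (counting error only). Exon summits in bin 2 of replicate 1 (44.3%) lie below the other classes (64.2%), the same bin of replicate 2 does not show this gap (36.3% and 38.7%), and in bin 4 the 3 sets drawn are all above 96% in both lists.

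Repeat content could not be read for members. The detailed annotation named a repeat for 0 of 294, and it named none for any exon, 5' UTR, promoter or termination-site summit of either list, where it repeated the class label.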

How the data were processed

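ChIP-seq of HA-tagged TBX3 in 501mel cells gave 1 peak list for each of the 2 ChIP samples, grouped by sample title. The submitters' processing notes name FastQC 0.11.7, cutadapt 2.8, Bowtie2 2.3.5, MACS2 2.1.2, SAMtools 1.9 and hg38. Per the file headers, annotatePeaks.pl of HOMER annotated the summits of each replicate apart, and the deposited peak score was made by the authors on a scale that the headers do not give. The deposited distance to the nearest TSS and the class label were used as given. Depth is unknown.

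Summits were paired with Python 3.11.15, pandas 2.3.3 and NumPy 2.4.6 where mutually nearest and within 200 bp, which was tested on simulated data. Spearman's rho came from pandas. Percentiles were taken within a list. Wilson intervals (95%) came from SciPy 1.17.1 and cover counting error only. Hosts came from the transcript in the label, through the RefSeq gene table of GRCh38.p14. Promoter windows came from RefSeq, and figures from matplotlib 3.10.9.

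Members and lists (pigmentation, T-box family, chromatin regulators, cell cycle, adhesion and matrix, 156 genes in all) were chosen with earlier results of these data known. Genes named were the 10 members with the lowest rank sum, the first 5 in 5' UTRs and in last exons, the 5 with the highest rank sum, genes with several members, listed genes, up to 2 per family, MC1R and the 3 pairs on either side of the pairing limit. Members named for their sequence, the other histone genes and those with equal summits or the largest distance were added after their values were seen. Alternatives covered the pairing distance, score limits, labels in both lists, assembled chromosomes and each replicate alone, and a removal of near-identical families chosen after seeing the data.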

Additional observations from a re-analysis of the deposited data

How the results depend on the processing

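Of 58 alternative values for 8 results, 8 concern the repeat share, which is 0 by construction, and 7 leave out unassembled sequences, which held no member; neither set is informative. Of the other 43, 32 stayed within the 95% interval of the main value, or within 1.5 times for a count, and 11 moved. Many of the 43 were partly fixed by their setting. Pairing within 100 bp, labels in both lists and the family removal kept subsets of the same members, so similar values were likely. A score limit selects for high percentiles, and dropping the partner can only add summits in replicate 1. Without the demand for a partner, 467 summits were in exons or 5' UTRs in replicate 1 alone and 501 in replicate 2 alone, with median percentiles of 51.4 and 50.0. The share in exon 1 then ranged from 23.4% to 29.1%, and that within 1 kb of a TSS from 23.2% to 30.6%, replicate 2 alone giving the lower value of each. With both scores at or above their list's median, 200 members remained. Their median percentiles were 82.1 and 84.8, their median summit distance 20 bp and their rho 0.843. Requiring an exon or 5' UTR label in both lists left 236 members and a median summit distance of 22 bp. Pairing within 100 or 500 bp gave 266 and 311 members. Removing near-identical families, chosen after seeing the data, left 280. No paired analysis was possible because there was a single ChIP condition, no test, and the input samples sharing the replicate numbers were not analysed here. Depth is unknown, so the unequal list lengths could not be scaled to it.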
